A study of Solanum lycopersicum x Solanum pennellii and Solanum lycopersicum with 17 samples.

Results

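CCD1A and CCD1B are a pair of tomato genes for carotenoid cleavage dioxygenase 1, and their transcripts were measured by 1 probe set each (Les.5921.1.S1_at and Les.3092.1.S1_at). They were taken by symbol from the platform annotation of 2007, which names 802 genes through 909 of the 10101 probe sets tested, so the pair makes up 2 of 802 named genes. The pair was picked because earlier results of these data showed the 2 genes moving apart in IL-1_1 against M82. The values of that contrast are therefore given as a description, with no test.

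CCD1 enzymes cut the carbon chain of carotenoids and of their breakdown products and release volatile ketones such as beta-ionone, geranylacetone and pseudoionone, which contribute to the aroma of tomato fruit. They work in the cytosol, whereas carotenoids are made and stored in plastids. A related enzyme of the same wider family, 9-cis-epoxycarotenoid dioxygenase, cuts epoxycarotenoids inside the plastid and so starts the synthesis of abscisic acid.

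Total RNA came from whole carpels of greenhouse-grown plants 7 days after pollination, when the ovary is growing into a fruit. It was hybridised after biotin labelling, 1 sample per array. The organisms named for the study are Solanum lycopersicum x Solanum pennellii and Solanum lycopersicum. The tested lines were IL-1_1 (n = 4 arrays), IL-1_4 (n = 3) and IL-2_3 (n = 4), and the control was the parental cultivar M82 (n = 6), called a seed control in the titles. The series title names the lines as introgression lines of S. pennellii: such a line carries a segment of the wild species' genome in the cultivated background, and all 4 groups were handled alike. Hybrids is the word of the design text for the lines; whether the plants were homozygous for the segment, and whether the arrays of a group came from separate plants, is not stated. P-values therefore reflect only the variation among these arrays, and that variation may be technical. Each introgression line stands for 1 wild segment and for no other allele of the genes inside it.

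The deposited values are log2 intensities (base 2 inferred from their range of 3.31 to 14.75), with array medians from 9.97 to 10.04. Of the markers of carpel and young fruit, 4 of 7 had a probe set by symbol (TAGL1, AGL11, TDR4 and fsm1), and their values lay between 8.04 and 13.04. Of these, fsm1, a regulator of early fruit growth, averaged 12.62 ± 0.30 in IL-1_1 (SD, n = 4), 11.23 ± 0.50 in IL-1_4 (n = 3), 11.14 ± 0.65 in IL-2_3 (n = 4) and 10.61 ± 1.45 in M82 (n = 6). The MADS-box gene TDR4 averaged 9.92 ± 0.93 in IL-1_1, 9.86 ± 0.25 in IL-1_4, 9.995 ± 0.486 in IL-2_3 and 8.61 ± 0.56 in M82. AGL11 averaged 11.74 ± 0.30 in IL-1_1 and 11.35 ± 0.46 in M82, and TAGL1 10.94 ± 0.08 in IL-1_1 and 10.96 ± 0.14 in M82. The part of these marker differences in the results on the pair was not tested. The pollen receptor kinase genes PRK1 and PRK3 lay between 3.69 and 5.01, close to the bottom of the range, and the ripening genes E8, PG2, ACS2 and ACS4 between 3.98 and 6.67. On the first principal component the highest scores were those of replicate 1 in IL-1_1 (68.1), replicate 4 in IL-2_3 (22.7) and replicate 1 in M82 (33.9). The next highest scores were 44.8, -10.1 and 7.43 in the same order, and the scores of IL-1_1 and M82 were spread out. That component held 45.7% of the variance, and scores on it ran from 14.6 to 68.1 in IL-1_1 and from -35.6 to 33.9 in M82.

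CCD1A was high in IL-1_1 and close to the M82 level in the other lines. Its value was 12.13, 12.04, 12.15 and 12.05 in the 4 IL-1_1 arrays, against a lowest value of 10.06, a median of 10.30 and a highest of 10.50 in the M82 arrays. All IL-1_1 arrays lay above all M82 arrays. The value was 10.28, 10.07 and 10.07 in IL-1_4 and 10.54, 10.46, 10.53 and 10.33 in IL-2_3. Both ranges overlapped with that of M82, and the 13 arrays outside IL-1_1 spanned 0.48 log2 units in all. The lowest IL-1_1 array stood 1.49 above the highest of those 13.

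CCD1B had the opposite order, with IL-1_1 lowest. Its value was 8.47, 8.75, 7.83 and 8.76 in the IL-1_1 arrays, against a lowest value of 10.51, a median of 10.74 and a highest of 11.05 in M82. All IL-1_1 arrays lay below all M82 arrays, and all lay well above the lowest value in the table (3.31), so the CCD1B signal in IL-1_1 was not at the floor. The value was 10.69, 10.60 and 10.75 in IL-1_4 and 11.03, 10.82, 11.31 and 10.97 in IL-2_3. Both ranges overlapped with M82, and the highest IL-1_1 array stood 1.75 below the lowest of the other 13 arrays, which spanned 0.80.

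**Figure D1:**
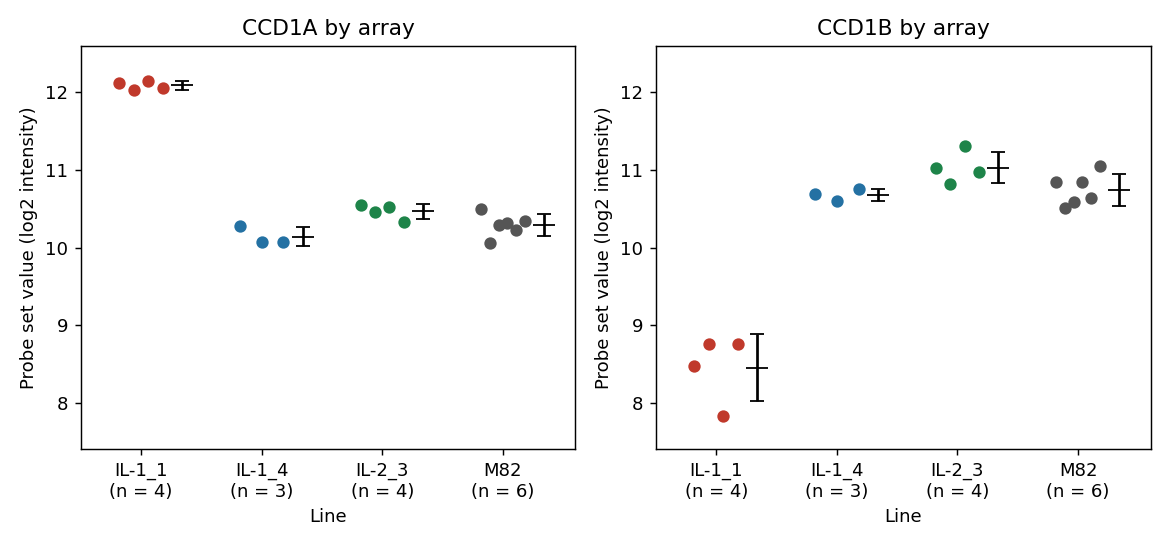
Probe set values (log2 intensity, vertical axis) of CCD1A (left panel) and CCD1B (right panel) in every array, by line, with 1 point per array and the group mean ± SD as a bar at its right. The 4 IL-1_1 arrays lie between 12.04 and 12.15 for CCD1A and between 7.83 and 8.76 for CCD1B, apart from the other 13 arrays in both panels.

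As group means, CCD1A stood at 12.09 ± 0.06 in IL-1_1 (SD, n = 4) and at 10.29 ± 0.15 in M82 (n = 6), a log2 difference of 1.80 ± 0.08 (SE of the limma fit) or 3.49-fold. CCD1B stood at 8.45 ± 0.44 in IL-1_1 and at 10.75 ± 0.20 in M82, a log2 difference of -2.29 ± 0.16, which is 4.90-fold lower in IL-1_1. Ranked by absolute difference in that contrast, CCD1B was number 76 and CCD1A number 149 of 10101 probe sets. IL-1_1 differed widely from M82: 12.2% of all probe sets were called (limma, Benjamini-Hochberg adjusted p under 0.05), 6.4% higher and 5.81% lower, and for 7.31% the IL-1_1 and M82 arrays did not overlap. The 3 arrays with the highest first-component score of IL-1_1, IL-2_3 and M82 were left out once. That choice was made after the data were seen. The differences were then 1.83 for CCD1A and -2.28 for CCD1B. The distance between IL-1_1 and M82 was thus of the same size without those arrays.

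The array's signal is set both by the amount of a transcript and by how well it matches the probes. Where a line could carry the wild allele of a gene, these cannot be told apart. How far each of the 2 probe sets also detects the transcript of the other paralog was not tested. In whole carpels, fewer cells of a type and less RNA per cell cannot be told apart either. The positions of the genes relative to the wild segments were not used here.

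In the other introgression lines neither gene passed the test against M82, and the 4 intervals together ran from -0.45 to 0.64 on the log2 scale. In IL-1_4 against M82, 0 of the 2 genes were called in limma's fit over all 17 arrays, where 0.644% of all probe sets were called. CCD1A averaged 10.14 ± 0.12 in IL-1_4 (SD, n = 3) and 10.29 ± 0.15 in M82 (n = 6), a difference of -0.15 with a 95% interval from -0.34 to 0.05 (limma, unadjusted p = 0.125, adjusted p = 0.9997). CCD1B averaged 10.68 ± 0.08 in IL-1_4 and 10.75 ± 0.20 in M82, a difference of -0.07 with an interval from -0.45 to 0.32 (limma, unadjusted p = 0.72, adjusted p = 0.9997). By their names, IL-1_1 and IL-1_4 both carry a segment of the same chromosome.

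In IL-2_3 against M82, 0 of the 2 genes were called, beside 0.901% of all probe sets. CCD1A averaged 10.47 ± 0.10 in IL-2_3 (SD, n = 4) and 10.29 ± 0.15 in M82 (n = 6). The difference was 0.18 with an interval from 0.00046 to 0.35 (limma, unadjusted p = 0.0495, adjusted p = 0.999). CCD1B averaged 11.03 ± 0.20 in IL-2_3 and 10.75 ± 0.20 in M82, a difference of 0.28 with an interval from -0.07 to 0.64 (limma, unadjusted p = 0.104, adjusted p = 0.999). Both genes thus had their mean above M82 in IL-2_3, by less than the test could call.

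The lines IL-1_4 and IL-2_3 were also set against each other, a contrast that shares no array with the one that drew attention to the genes. No array of IL-1_4 reached the IL-2_3 range for either gene: CCD1A ran from 10.07 to 10.28 in IL-1_4 against 10.33 to 10.54 in IL-2_3, and CCD1B from 10.60 to 10.75 in IL-1_4 against 10.82 to 11.31 in IL-2_3. In this same contrast the groups did not overlap for 17.2% of all probe sets. CCD1A was lower in IL-1_4 by a log2 difference of -0.32 ± 0.10 (SE; interval -0.53 to -0.12; limma, unadjusted p = 0.00471, adjusted p = 0.193) and CCD1B by -0.35 ± 0.19 (interval -0.77 to 0.06; unadjusted p = 0.0921, adjusted p = 0.643). These SEs use the spread over all arrays, IL-1_1 included. With only the 2 groups fitted, CCD1A gave -0.32 ± 0.09 (SE, limma adjusted p = 0.202) and CCD1B -0.35 ± 0.12 (adjusted p = 0.263). Neither gene passed the adjusted threshold in either fit. In the fit over all arrays 1.54% of all probe sets did.

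The order of the group means was therefore IL-1_1, IL-2_3, M82 and IL-1_4 from high to low for CCD1A, and IL-2_3, M82, IL-1_4 and IL-1_1 for CCD1B. Among IL-2_3, M82 and IL-1_4 no neighbours in either order passed the limma test after adjustment over all probe sets (adjusted p of 0.999 or 0.9997). Before adjustment, in the fit over all arrays, the interval of CCD1A in IL-2_3 against M82 just excluded 0. Those of the other neighbours included it. These intervals also use the spread of the IL-1_1 arrays. Without IL-1_1 replicate 3, IL-2_3 against M82 gave 0.176 ± 0.084 for CCD1A and 0.285 ± 0.118 for CCD1B (SE). The order of IL-2_3, M82 and IL-1_4 was the same for both genes. IL-1_1 took the top place for one and the bottom place for the other.

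**Figure D2:**
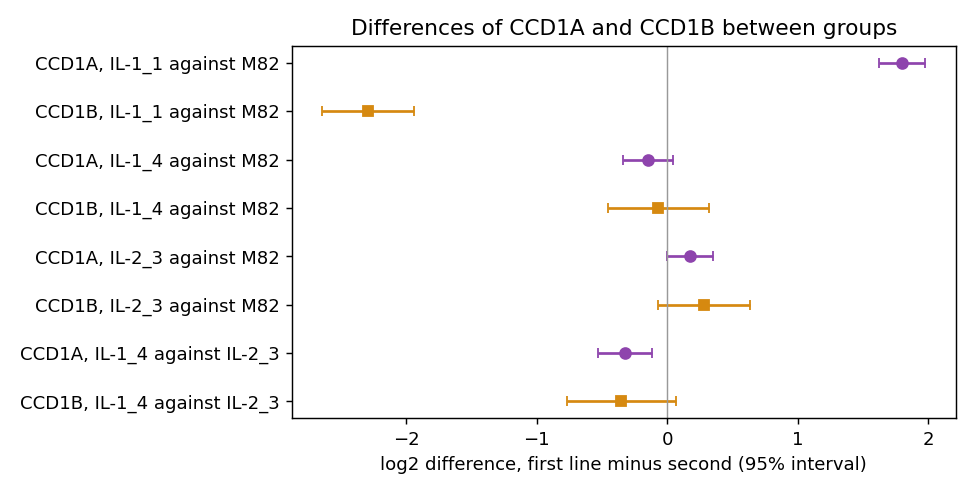
Differences of CCD1A (circles) and CCD1B (squares) between groups, as log2 of the first line named minus the second, with the 95% interval of the limma fit. The IL-1_1 differences from M82 lie at 1.80 and -2.29, and the other 6 lie between -0.35 and 0.28. The IL-1_1 rows are a description.

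The paralogs were then compared within each array, where any shift common to the whole array cancels. The difference CCD1A minus CCD1B has no true zero, because 2 probe sets can differ in brightness for the same amount of RNA, so only its change between groups can be read. It was 3.66, 3.29, 4.32 and 3.29 in the IL-1_1 arrays, against a lowest value of -0.71, a median of -0.43 and a highest of -0.30 in M82. It was -0.41, -0.53 and -0.68 in IL-1_4 and -0.48, -0.36, -0.78 and -0.64 in IL-2_3. Every IL-1_1 array thus had a larger difference than each of the other 13 arrays, and the ranges of IL-1_4, IL-2_3 and M82 overlapped.

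The mean within-array difference was 3.64 ± 0.49 in IL-1_1 (SD, n = 4) and -0.46 ± 0.15 in M82 (n = 6), a shift of 4.10 log2 units, or 17.1-fold, in the ratio of the 2 signals. In IL-1_4 it was -0.54 ± 0.13 (n = 3), a difference from M82 of -0.08 with a 95% interval (pooled variance) from -0.32 to 0.16. An exact two-sided permutation test over all 84 splits of those arrays gave p = 0.5 (0.75 after Benjamini-Hochberg adjustment over 3 comparisons). In IL-2_3 it was -0.57 ± 0.18 (n = 4), a difference from M82 of -0.11 with an interval from -0.35 to 0.13 (exact permutation p = 0.319 over 210 splits, adjusted p = 0.75). IL-1_4 against IL-2_3 gave 0.03 with an interval from -0.30 to 0.35 (exact permutation p = 0.829 over 35 splits, adjusted p = 0.829). The smallest permutation p that 35 splits allow is 0.0286, which alone could not fall under 0.05 after adjustment over the 3 comparisons. Over the 3 comparisons the interval bounds farthest from 0 were -0.35 and 0.35.

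**Figure D3:**
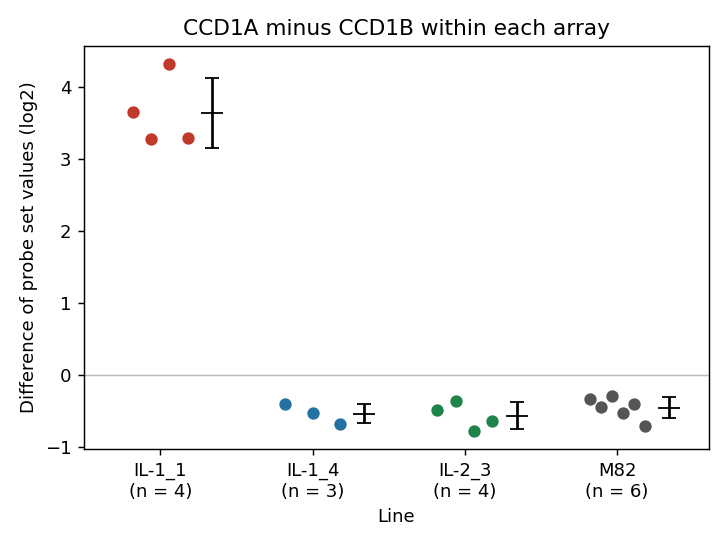
CCD1A minus CCD1B within each array (log2, vertical axis) by line, with 1 point per array and the group mean ± SD as a bar. The 4 IL-1_1 arrays lie between 3.29 and 4.32 and the other 13 between -0.78 and -0.30.

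The spread within groups differed between the paralogs. The SD within groups, pooled over all 17 arrays, was 0.115 for CCD1A and 0.265 for CCD1B, against a median of 0.224 over all probe sets. For CCD1A, 12.4% of probe sets had a smaller spread, and for CCD1B 59.8% had. The wider spread of CCD1B came largely from IL-1_1, where replicate 3 had 7.83 and the other 3 arrays 8.47 to 8.76, while CCD1A in the same 4 arrays spanned 0.117 log2 units.

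Deviations from the group means gave Pearson r = 0.157 between the paralogs over the 17 arrays, a description that mixes unlike groups. Within IL-1_1 the array with the highest CCD1A value, replicate 3 (12.15), had the lowest CCD1B value (7.83). Over the 6 M82 arrays alone r was 0.683, and over the 13 arrays outside IL-1_1 it was 0.545. Arrays of a group share processing and tissue, and a common shift of an array raises such values. Deviations along the first principal component gave r = 0.397 for CCD1A and 0.238 for CCD1B.

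**Figure D4:**
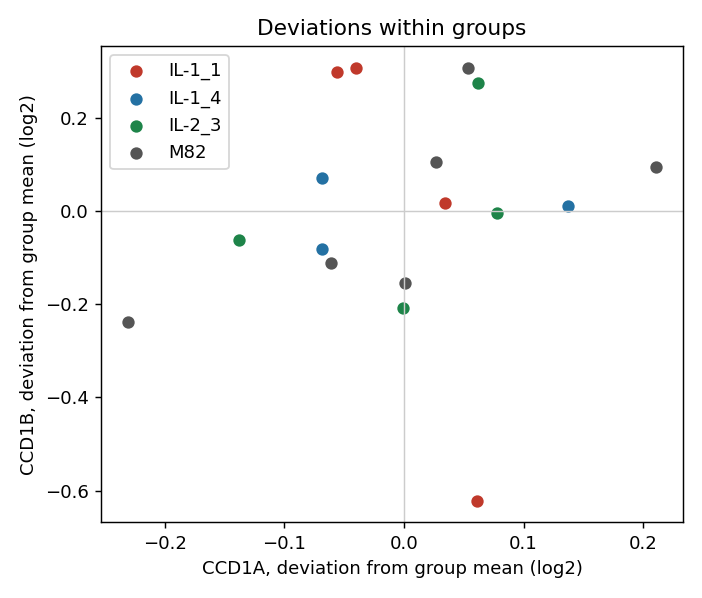
Deviation of each array from its group mean for CCD1A (horizontal axis) and CCD1B (vertical axis), both in log2 units, with 1 point per array coloured by line. IL-1_1 replicate 3 is the lowest point, and without the IL-1_1 arrays the points give r = 0.545.

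The other genes of the carotenoid pathway were counted in the same fit. The list holds 22 probe sets of 19 genes of carotenoid synthesis, plastid isoprenoid supply and apocarotenoid or abscisic acid metabolism, without CCD1A and CCD1B. In IL-1_1 against M82, 0 of the 22 were called higher and 1 was called lower, beside 6.4% and 5.81% of all probe sets, with a median log2 difference of 0.03 for the list and of -0.02 for all tested probe sets. At an unadjusted p under 0.05 the limma fit held 4 of the 22 (18.2%), against 33.5% of all probe sets. In IL-1_4 and in IL-2_3 against M82, 0 of the 22 were called, beside 0.644% and 0.901% of all probe sets. At an unadjusted p under 0.05 the limma fit held 0 of the 22 in both lines, against 3.52% of all probe sets in IL-1_4 and 4.66% in IL-2_3, so counts of 0 are near the background. The list medians were 0.01 in IL-1_4 and 0.04 in IL-2_3.

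The lower call in IL-1_1 was TAO2, an aldehyde oxidase gene of the enzyme family that includes the last step of abscisic acid synthesis. TAO2 ran from 7.70 to 8.49 in the IL-1_1 arrays against 9.93 to 10.98 in the M82 arrays, without overlap. Its difference was -2.42 ± 0.17 (SE, limma adjusted p = 1.7e-07). This p does not account for the choice of the list, made with earlier results of these data known. The paralog TAO3, with means of 5.10 in IL-1_1 and 5.07 in M82, gave 0.03 ± 0.10 (limma adjusted p = 0.865). Both TAO3 means lay in the range of the ripening genes given above, where a decrease would be hard to see.

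NCED1, which encodes the epoxycarotenoid dioxygenase named above, lay at the edge of the threshold in IL-1_1. Its values ran from 9.17 to 11.78 in IL-1_1 and from 7.68 to 9.98 in M82, so the groups overlapped, and the difference was 1.73 ± 0.55 (SE; limma adjusted p = 0.0508). It was called in 8 of the 25 settings tried, among them those without M82 replicate 1 (2.05, adjusted p = 0.00932), without IL-1_1 replicate 2 (2.03, adjusted p = 0.0342) and without IL-2_3 replicate 2 (1.73, adjusted p = 0.0418). In IL-2_3 NCED1 gave 0.98 ± 0.55 against M82 (adjusted p = 0.999).

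The 14 probe sets of carotenoid synthesis had 0 calls in IL-1_1. The probe sets of Psy1, a phytoene synthase gene and so the entry to the pathway, gave 0.46 ± 0.15, 0.54 ± 0.27 and -0.01 ± 0.18 against M82 (limma adjusted p = 0.0572, 0.17 and 0.961). The first of them was called in 4 of the 25 settings, among them those without M82 replicate 1 (adjusted p = 0.0136), M82 replicate 6 (0.0487) or IL-2_3 replicate 2 (0.0443). In M82 the Psy1 probe sets averaged 10.03, 8.21 and 4.94 in the same order. The last value lay in the range of the ripening genes given above. ZEP, the zeaxanthin epoxidase gene, gave 0.35 ± 0.15 (adjusted p = 0.118) in IL-1_1. The 4 genes of plastid isoprenoid supply (DXS, DXR, HDS and ISPE) had differences from -0.42 to -0.09 in IL-1_1, with 0 called.

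In IL-1_4 the 4 pathway probe sets with the smallest p were CrtR-b1, a beta-carotene hydroxylase gene, at 0.20 ± 0.12, LCY1, a lycopene cyclase gene, at 0.16 ± 0.13, ZDS, the zeta-carotene desaturase gene, at -0.11 ± 0.09, and ZEP at 0.19 ± 0.16. In IL-2_3 they were NCED1, ZEP at 0.26 ± 0.15, HDS at 0.14 ± 0.10 and the phytoene synthase gene PSY2 at -0.15 ± 0.11. All of these missed the threshold (limma adjusted p of 0.999 or 0.9997).

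**Figure D5:**
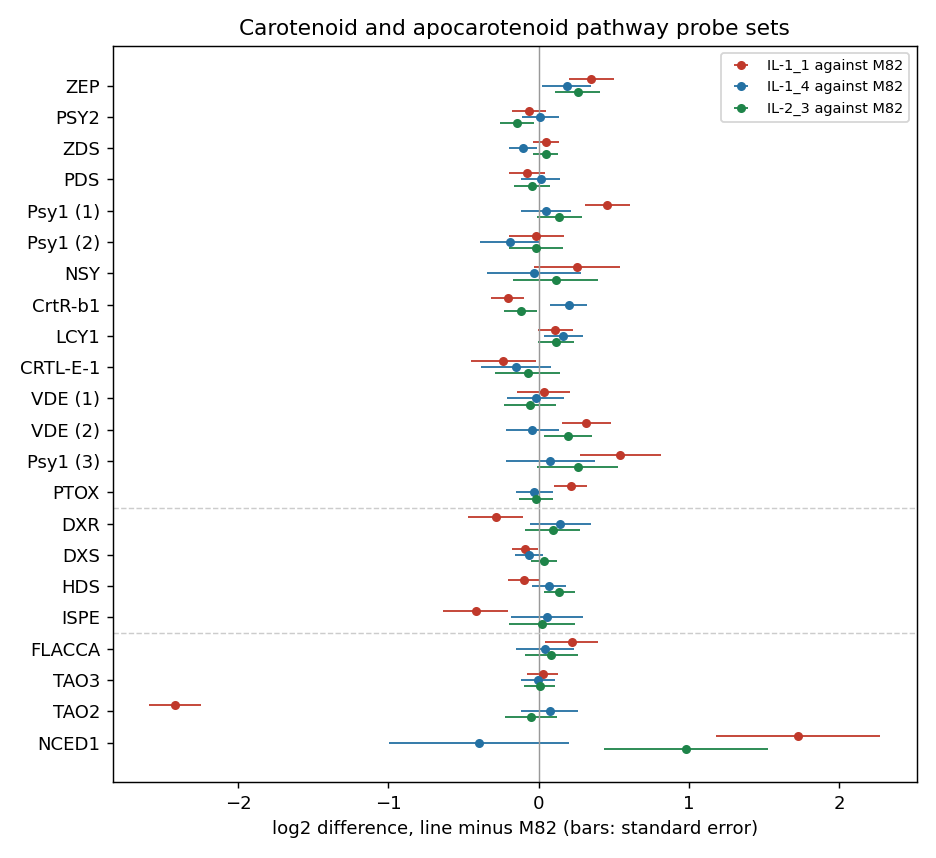
Differences from M82 (log2, horizontal axis, bars are the standard error) of the 22 pathway probe sets in IL-1_1, IL-1_4 and IL-2_3, grouped by dashed lines into carotenoid synthesis, plastid isoprenoid supply and apocarotenoid or abscisic acid genes, with numbers in brackets for genes with several probe sets. TAO2 in IL-1_1 stands at -2.42 and NCED1 in IL-1_1 at 1.73, with the other points between -0.42 and 0.98.

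Among the other 908 probe sets with a symbol, the profile most like that of CCD1A over the 17 arrays was that of loxC, a lipoxygenase gene for fruit volatiles (Pearson r = 0.928). CLB1 (0.914), the kinase gene MAPKKKalpha (0.906), CEVI57 (0.897) and LOC543517 (0.893) followed. All 5 had their highest group mean in IL-1_1. That follows largely from the ranking, because 98.3% of the variance of CCD1A lay between groups. Outside IL-1_1, over 13 arrays, the same genes gave r = 0.261, 0.653, 0.682, 0.284 and 0.378, each lower than over all 17. The likeness of all 5 over the 17 arrays thus rested mainly on the step between IL-1_1 and the rest.

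The profile most like that of CCD1B was that of sbt4a, a subtilisin-like protease gene (r = 0.948). TAO2 (0.940), LOC543740 (0.937), formin-I2I (0.927) and the phosphatase gene PP2Ac2 (0.871) followed. All 5 had their lowest group mean in IL-1_1. That follows largely from the ranking, because 95% of the variance of CCD1B lay between groups. In IL-1_1 sbt4a (mean 3.94), LOC543740 (5.03) and formin-I2I (5.42) were low in the range of values, which starts at 3.31. Over the 13 arrays outside IL-1_1 the 5 genes gave r = -0.093, -0.480, -0.250, 0.065 and -0.185, with no value above 0.065.

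Measured on deviations from the group means, which leave the step in IL-1_1 out, other genes came first. For CCD1A they were AN35 (r = 0.931), TPx1 (0.799), PYD1A (0.789), AGP-S2 (0.774) and DIG3 (0.761), and over the 13 arrays outside IL-1_1 AN35 gave 0.940. For CCD1B both probe sets of VDE, the violaxanthin de-epoxidase gene of the xanthophyll cycle, were among the first 5 (0.790 and 0.751), with LOC543864 (0.769), the proline transporter gene ProT3 (0.734) and the expansin gene EXPA3 (0.722). Outside IL-1_1 the VDE values were 0.543 and 0.585, with 0.817 for LOC543864, 0.403 for ProT3 and 0.845 for EXPA3. The second VDE probe set had group means from 5.84 to 5.93, in the range of the ripening genes given above. The r values over the 17 arrays are the highest of 908 for each member and are given as descriptions.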

How the data were processed

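Carpel RNA of 17 arrays in 4 groups was analysed. The values used are log2 probe set intensities as deposited by the authors. The submitters' processing notes name affy; its version, the background correction and the summarization are not stated. Base 2 was inferred from the range. The table held 10209 probe sets, and 108 AFFX controls among them were dropped. No further normalization or filter was applied to the 10101 tested, of which 909 have 1 symbol in the platform annotation. Groups come from the sample titles.

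Lines were compared in 1 limma fit over all arrays (limma 3.58.1, R 4.3.3, two-sided, Benjamini-Hochberg over all probe sets, called at 0.05). The code was run on simulated data with independent noise in each probe set, which does not test its error rate on these arrays. The within-array difference was compared by exact permutation (Python 3.11.15). The number of arrays limits the precision. The members, the pathway list and the naming rule were chosen with earlier results of these data known. The rule names the pair, the called pathway probe sets (or the 4 with the smallest p) and the 5 most alike probe sets with a symbol. Psy1, NCED1, TAO3, ZEP in IL-1_1 and the markers were named after their values were seen. Alternatives were centring, quantile normalization, a filter on dim probe sets, fits of 2 groups, another prior, the replicate number as a block and leaving out arrays. Same-numbered arrays of different groups deviated together (r over 0.1) in 10 of 21 pairs, and differently numbered ones in 28 of 85. Whether the numbers mark a batch was not settled, and the main fit did not pair arrays by number.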

Additional observations from a re-analysis of the deposited data

How the results depend on the processing

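The differences of CCD1A and CCD1B kept their direction and their side of the threshold in the alternatives run, with the following exceptions. With the replicate block, CCD1B in IL-1_4 against M82 was 0.027 and the change of the within-array difference in IL-1_4 against IL-2_3 was -0.034. That change ran from -0.044 (without IL-2_3 replicate 3) to 0.097 with 1 array left out, and was -0.036 without IL-1_4 replicate 1. All of these were smaller than the spread between arrays. Over all alternatives IL-1_1 against M82 gave 1.76 to 1.85 for CCD1A, -2.40 to -2.09 for CCD1B and 3.87 to 4.21 for the within-array difference. The limma adjusted p of CCD1A in IL-1_4 against IL-2_3 was 0.0752 at the lowest and 0.686 at the highest. That of CCD1B ran from 0.263 to 0.914.

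The number of probe sets called in IL-1_1 was 1233. It was 377 with only the 2 groups compared, 815 with the replicate block and 1916 without the 3 arrays of highest first-component score. With 1 array left out it was 421 to 3079 (3079 without M82 replicate 1, 421 without IL-1_1 replicate 4). In IL-2_3 it was 91, and 60 with only the 2 groups compared. Pathway calls in IL-1_1 numbered 2 with median centring, without the dimmest 25%, with a trended robust prior and with the replicate block, 3 without the 3 arrays, and 1 to 3 with 1 array left out. The additional calls were NCED1, Psy1 or, without IL-1_1 replicate 3, VDE, and TAO2 was called in all 25 settings.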
